A study of Homo sapiens with 8 samples.

Results

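The 7 human APOBEC3 genes (APOBEC3A, APOBEC3B, APOBEC3C, APOBEC3D, APOBEC3F, APOBEC3G and APOBEC3H) encode cytidine deaminases. They were taken by gene name from a table of 57905 genes, and all 7 were found. The family was selected on the APOBEC3G level, which was far lower in PC3 cells with added TRIB1, so every PC3 comparison of its members with and without TRIB1 is a description and carries no test. RNA was sequenced from 8 libraries in 4 groups of 2: PC3 with a TRIB1 lentivirus, PC3 with an empty lentivirus as the control, DU145 with the TRIB1 lentivirus and DU145 with the empty one. PC3 and DU145 are established prostate cancer lines, grown from a bone and a brain metastasis, and TRIB1 is a pseudokinase that brings substrates to the ubiquitin ligase COP1. All 4 groups, controls included, had thus received a lentivirus. The sources used here give no promoter for TRIB1, no time after infection and no selection of infected cells.

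APOBEC3 enzymes turn cytosine into uracil in single-stranded DNA. Packaged into a retrovirus, APOBEC3G, APOBEC3F, APOBEC3D and APOBEC3H mutate the viral DNA as it is copied, and HIV-1 counters them with Vif, which sends them to a ubiquitin ligase for degradation. APOBEC3A and APOBEC3B reach the nuclear genome and are linked to the clustered and genome-wide cytosine mutations of many carcinomas. In the body the family is known mainly from lymphocytes and myeloid cells, and several members are induced by interferon.

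Each enzyme is built from 1 or 2 zinc-binding domains, marked by a histidine, a glutamate and a pair of cysteines that hold the zinc and activate the water molecule. In the coding sequences of GENCODE 29, APOBEC3A (199 residues), APOBEC3C (190) and APOBEC3H (182) held 1 such motif, and APOBEC3B (382), APOBEC3D (386), APOBEC3F (373) and APOBEC3G (384) held 2. The coding stretches of the last motif of each gene are shown because they set out which members are close copies, which bears on how far their transcripts can be told apart. They run 5′ to 3′ from the histidine codon to the last cysteine codon, and the capitals mark the codons of the histidine, the glutamate and both cysteines. All 7 genes lie on the plus strand of chromosome 22.
APOBEC3G motif 2: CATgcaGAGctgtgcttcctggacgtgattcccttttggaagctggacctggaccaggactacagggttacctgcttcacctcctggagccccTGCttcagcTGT
APOBEC3B motif 2: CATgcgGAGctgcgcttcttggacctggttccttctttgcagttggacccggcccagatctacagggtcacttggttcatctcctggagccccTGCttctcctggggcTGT
APOBEC3C: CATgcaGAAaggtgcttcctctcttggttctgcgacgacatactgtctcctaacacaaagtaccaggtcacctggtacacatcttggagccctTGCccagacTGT
APOBEC3F motif 2: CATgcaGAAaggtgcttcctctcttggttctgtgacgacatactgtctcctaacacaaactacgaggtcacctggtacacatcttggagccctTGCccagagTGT
APOBEC3H: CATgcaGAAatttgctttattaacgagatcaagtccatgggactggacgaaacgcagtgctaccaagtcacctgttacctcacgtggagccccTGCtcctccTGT

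The APOBEC3B stretch was identical in APOBEC3A, and that of APOBEC3F was identical in APOBEC3D. APOBEC3C matched the APOBEC3F stretch at 101 of 105 aligned bases (96.2%), and APOBEC3G matched the APOBEC3B stretch at 86 of 105 (81.9%) but the APOBEC3C stretch at only 57.1%. Over whole transcripts, 37.8% of the 50-base words of APOBEC3B, 24.5% of those of APOBEC3A, 20.8% of those of APOBEC3F and 14.8% of those of APOBEC3D also stood in another member. The share was 7.06% for APOBEC3G, 1.14% for APOBEC3C and 0 for APOBEC3H. No source used here says how reads from shared stretches were assigned. By shared words alone, the values of APOBEC3A, APOBEC3B, APOBEC3D and APOBEC3F are less certain than those of APOBEC3C and APOBEC3G. The listed gene intervals also overlap, APOBEC3C with APOBEC3D over 5990 bases and APOBEC3F with APOBEC3G over 4274. Read assignment in these overlaps is not known either, so APOBEC3C and APOBEC3G are not secure in this respect.

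Levels are given in TPM, transcript values scaled by length and to an equal total in each library. Library depth is unknown. The labels were checked with TRIB1, which stood at 241 and 245 TPM in PC3 with the TRIB1 virus, against 45.1 and 50.8 TPM in PC3 controls, and at 69.4 and 62.3 TPM in DU145 with the TRIB1 virus, against 10.1 and 7.94 TPM in DU145 controls. Each library had 19731 to 21335 genes at 1 TPM or more. The lines separated on the first principal component, and on the next one the library of replicate 2 of DU145 with TRIB1 stood apart from the other 3 DU145 libraries. It also held the highest share of the abundant small RNAs RN7SL1 and RN7SL2, 3.17% of the total against 1.266% to 2.239% elsewhere. All 5 carcinoma epithelial markers were above 1 TPM in every group, but their sum differed. It was 2770 to 2820 TPM in PC3 with TRIB1, against 1450 to 1510 TPM in PC3 controls, and 1280 to 1400 TPM in DU145 with TRIB1, against 1390 to 1430 TPM in DU145 controls. KRT8 alone stood at 691 and 680 TPM in PC3 with TRIB1, against 233 and 236 TPM in PC3 controls, and the E-cadherin gene CDH1 at 107 and 101 TPM in PC3 with TRIB1, against 37.0 and 33.6 TPM in PC3 controls. These markers thus moved in the same PC3 libraries as the APOBEC3 genes, and their part in the APOBEC3 values was not tested. Of 10 lymphocyte markers, NKG7 alone reached a mean of 1 TPM in a group, and their summed level was 2.17 to 4.12 TPM in PC3 with TRIB1, 2.66 to 4.04 TPM in PC3 controls, 2.5 to 3.27 TPM in DU145 with TRIB1 and 2.58 to 4.9 TPM in DU145 controls. The 7 myeloid markers summed to 3.32 to 6.62 TPM over all libraries. CD3D was listed at 0 in 4 of the 8 libraries and reached at most 0.292 TPM, and PTPRC, the pan-leukocyte gene, reached at most 0.467 TPM. Luminal prostate markers were low as well, at 7.38 to 14.1 TPM summed.

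APOBEC3G (ENSG00000239713), the founding anti-HIV member, is listed at 39436924 to 39483735 on chromosome 22, in a genome build that the table does not state. It stood at 3.68 and 3.90 TPM in PC3 with TRIB1, against 55.7 and 54.6 TPM in PC3 controls. The mean in PC3 with TRIB1 was 3.79 ± 0.151 TPM, against 55.1 ± 0.766 TPM in PC3 controls (SD, n = 2 each), 14.5-fold lower. On the log2(TPM + 1) scale this change was -3.55 (SE 0.11). In DU145 the gene stood at 4.56 and 4.60 TPM with TRIB1, against 5.50 and 4.65 TPM in controls. The PC3 controls therefore stood alone: the other 6 libraries lay between 3.68 and 5.50 TPM. The order of the group means was PC3 control, DU145 control (5.07 ± 0.604 TPM), DU145 with TRIB1 (4.58 ± 0.0336 TPM) and PC3 with TRIB1, and the 2 DU145 groups did not differ beyond their spread. In bulk RNA, fewer cells with the transcript and less of it per cell cannot be told apart.

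**Figure D1:**
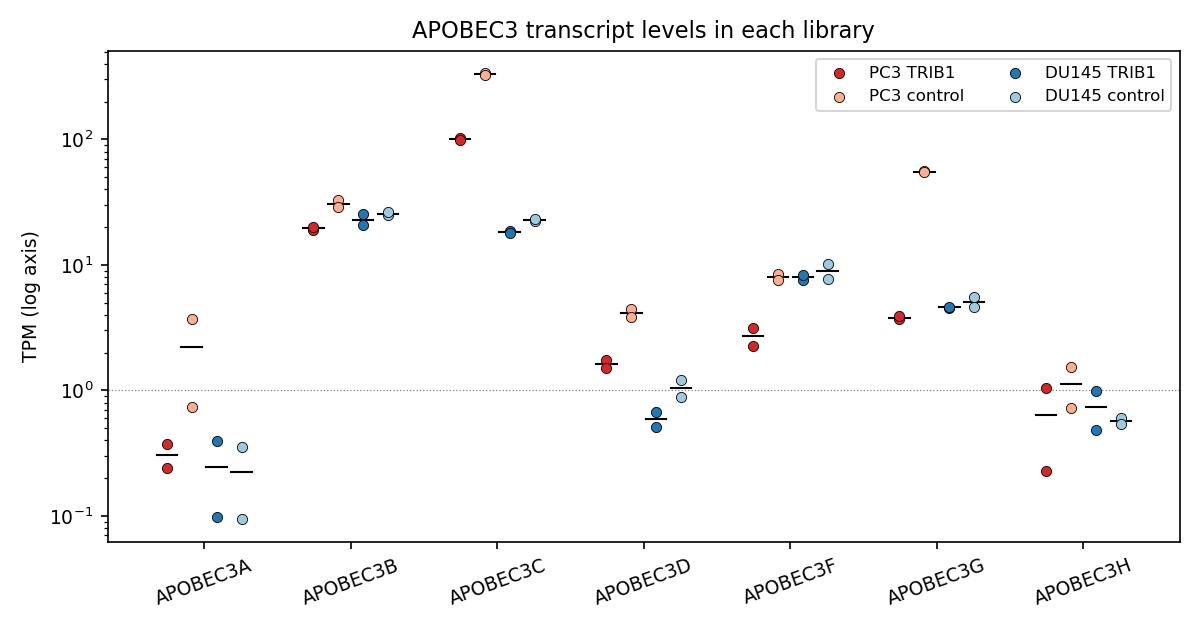
TPM of each APOBEC3 gene in the 8 libraries, on log axes, with 1 point per library and a bar at the mean of the 2 libraries of each group. APOBEC3G lies between 3.68 and 5.50 TPM everywhere except in the PC3 controls, at 55.7 and 54.6 TPM.

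APOBEC3C (ENSG00000244509, listed at 39410088 to 39416357), a single-domain enzyme with weak activity on HIV-1, was the most abundant member in PC3. Its level was 103 and 98.2 TPM in PC3 with TRIB1, against 337 and 326 TPM in PC3 controls, 3.29-fold lower, a log2 change of -1.71 (SE 0.06). In DU145 it was 18.7 and 17.9 TPM with TRIB1, against 22.2 and 23.4 TPM in controls. Unlike that of APOBEC3G, the APOBEC3C level of PC3 with TRIB1 stayed above both DU145 groups.

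APOBEC3F (ENSG00000128394, listed at 39436609 to 39441197) and APOBEC3D (ENSG00000243811, listed at 39410368 to 39428321) encode double-domain enzymes that HIV-1 Vif also targets. APOBEC3F stood at 2.27 and 3.13 TPM in PC3 with TRIB1, against 8.44 and 7.62 TPM in PC3 controls, 2.97-fold lower. The level in DU145 was 7.53 and 8.35 TPM with TRIB1, against 10.2 and 7.75 TPM in controls. PC3 with TRIB1 was the 1 group that stood below the rest for this gene, while the remaining 3 overlapped. APOBEC3D was lower in level, at 1.75 and 1.5 TPM in PC3 with TRIB1, against 4.44 and 3.81 TPM in PC3 controls. In DU145 it stood at 0.676 and 0.515 TPM with TRIB1, against 0.89 and 1.2 TPM in controls.

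APOBEC3B (ENSG00000179750, listed at 39378352 to 39388551), the nuclear deaminase most often tied to carcinoma mutations, varied least among the 7 over the 8 libraries. It measured 19.0 and 20.1 TPM in PC3 with TRIB1, against 32.6 and 28.7 TPM in PC3 controls, 1.57-fold lower, and its log2 change was -0.62 (SE 0.12). The DU145 values were 25.2 and 20.8 TPM with TRIB1, against 24.9 and 26.2 TPM in controls, and those groups overlapped. Its listed interval shares 988 bases with APOBEC3B-AS1 on the opposite strand. With the strand setting not given, the 2 transcripts cannot be told apart in that stretch. APOBEC3B-AS1 was at 1.12 and 1.04 TPM in PC3 with TRIB1, against 1.53 and 0.867 TPM in PC3 controls, far below APOBEC3B itself.

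APOBEC3A (ENSG00000128383, listed at 39348746 to 39349421) and APOBEC3H (ENSG00000100298, listed at 39493229 to 39500072) lay near or below 1 TPM in most libraries. APOBEC3A, a single-domain enzyme typical of myeloid cells, measured 0.239 and 0.373 TPM in PC3 with TRIB1, against 0.738 and 3.68 TPM in PC3 controls, so its control mean rests on 1 library. APOBEC3H, known for its many human protein variants, measured 0.227 and 1.05 TPM in PC3 with TRIB1, against 1.52 and 0.729 TPM in PC3 controls, and those groups overlapped. Both genes entered the fit only through the PC3 controls, since genes needed a mean of 1 TPM in some group. APOBEC3D did so through 3 groups and the other 4 members through all 4.

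The 7 levels add up, since TPM is a share of all transcripts. The family total was 130.5 and 128.2 TPM in PC3 with TRIB1, against 440.7 and 424.8 TPM in PC3 controls, and 57.5 and 53.2 TPM in DU145 with TRIB1, against 64.4 and 64.0 TPM in DU145 controls. APOBEC3C made up 79.2% and 76.6% of the total in PC3 with TRIB1, against 76.5% and 76.7% in PC3 controls. The share of APOBEC3G was 2.82% and 3.04% in PC3 with TRIB1, against 12.6% and 12.8% in PC3 controls. APOBEC3B took 14.6% and 15.7% in PC3 with TRIB1, against 7.39% and 6.77% in PC3 controls. In DU145 the leading member was APOBEC3B, at 43.8% and 39.0% of the total with TRIB1, against 38.6% and 40.9% in controls, followed by APOBEC3C at 32.5% and 33.6% with TRIB1, against 34.5% and 36.5% in controls. PC3 thus carried mainly APOBEC3C with or without TRIB1, and DU145 a mixture led by APOBEC3B.

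**Figure D2:**
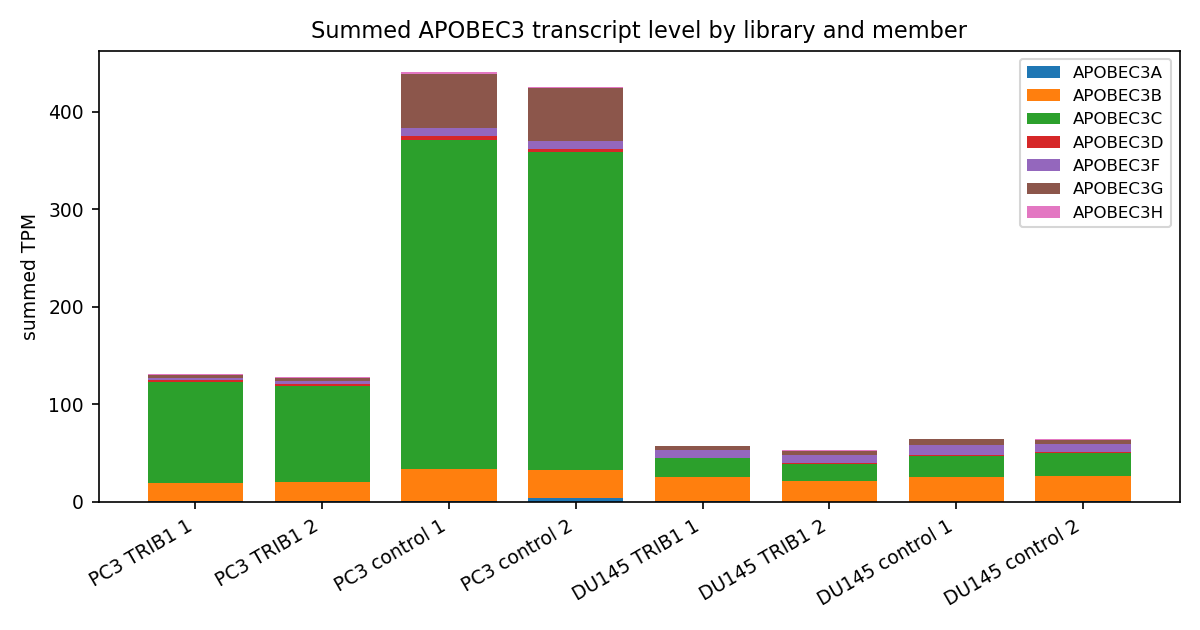
Stacked TPM of the 7 APOBEC3 genes in each library, starting at 0, with 1 bar per library and 1 colour per gene. The bars reach 130.5 and 128.2 TPM in PC3 with TRIB1, 440.7 and 424.8 TPM in PC3 controls and 53.2 to 64.4 TPM in DU145, and APOBEC3C fills most of each PC3 bar.

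All 7 fitted changes were below 0 in PC3, where 50.8% of the 25982 genes tested were. Without overlap between the groups, 6 members (all but APOBEC3H) were lower in PC3 with TRIB1, against 29.8% of all genes. Past an adjusted p of 0.05 were 5 members, all lower, where 9.33% of all genes were, and 3 of them (APOBEC3C, APOBEC3F and APOBEC3G) also passed a log2 change of 1, where 2.67% of all genes did. Since this comparison chose the family, these counts describe it and nothing is read from them. The count of 5 became 2 without replicate 1 of PC3 with TRIB1 and 3 without replicate 2.

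The DU145 comparison played no part in the choice and asks whether the family also differs with TRIB1 there. None of the 7 members passed an adjusted p of 0.05 with limma, where 2.72% of all genes did. At an unadjusted p below 0.05 there was 1, APOBEC3C, where 17.7% of all genes were. APOBEC3A and APOBEC3H were below 1 TPM in both DU145 groups and entered the fit only through the PC3 controls. Their DU145 tests therefore say little. APOBEC3C averaged 18.3 ± 0.572 TPM with TRIB1 and 22.8 ± 0.812 TPM in DU145 controls (SD, n = 2 each), a log2 change of -0.30 (SE 0.06, 95% interval -0.452 to -0.151, limma adjusted p = 0.0713). APOBEC3G changed by -0.12 on the log2 scale (SE 0.11, 95% interval -0.381 to 0.144, limma adjusted p = 0.626). Its DU145 controls averaged 5.07 TPM, already near the 3.79 TPM of PC3 with TRIB1. On the log2(TPM + 1) scale a fall of the PC3 size was not possible from that level, so the interval is not set against it. APOBEC3C, APOBEC3D and APOBEC3G had both TRIB1 libraries below both controls, 3 of 7 members, where 29.7% of all genes were arranged so. For the remaining members the fitted changes were 0.02 for APOBEC3A, -0.15 for APOBEC3B, -0.36 for APOBEC3D, -0.15 for APOBEC3F and 0.13 for APOBEC3H, with adjusted p from 0.397 to 1. The signs of APOBEC3A, APOBEC3F and APOBEC3H turned when single DU145 libraries were left out. The median of the 7 members was -0.15, beside -0.04 over all genes. In PC3 it was -1.13, the value of APOBEC3A with its SE of 0.48, beside -0.01 over all genes, which is a description like the counts.

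Taken as DU145 minus PC3, the change differed by 3.43 for APOBEC3G (SE 0.15), 1.41 for APOBEC3C (SE 0.09) and 1.14 for APOBEC3F (SE 0.26) on the log2 scale. These 3 members were past an adjusted p of 0.05 and a log2 difference of 1, where 2.11% of all genes were higher by that rule. Among alternatives with all 8 libraries, APOBEC3F passed that adjusted p only at a minimum of 5 TPM and after median-of-ratios scaling. It no longer passed with a pseudocount of 0.1, no minimum, upper-quartile scaling, no trend or a replicate block. APOBEC3C and APOBEC3G passed in each of these. Without single libraries the APOBEC3F difference ranged from 0.964 to 1.324. The difference holds the PC3 values that chose the family and is given as a description. For APOBEC3G, the low level of the DU145 controls also bounds the fall possible in DU145.

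The controls show how the lines differ without added TRIB1. APOBEC3C averaged 332 ± 8.31 TPM in PC3 controls and 22.8 ± 0.812 TPM in DU145 controls (SD, n = 2 each), 14.5-fold higher in PC3, with a log2 change of 3.81 (SE 0.06, limma adjusted p = 1.85e-06). APOBEC3D averaged 4.13 ± 0.446 TPM in PC3 controls and 1.05 ± 0.222 TPM in DU145 controls, a log2 change of 1.33 (SE 0.18, limma adjusted p = 0.00193). Because the listed interval of APOBEC3D overlaps that of the far more abundant APOBEC3C, part of its reads may belong to APOBEC3C, which was not tested. APOBEC3G was 10.9-fold higher in PC3 controls than in DU145 controls, given without a test because its PC3 level entered the choice. APOBEC3C and APOBEC3D were thus 2 of the 4 members tested here that were higher in PC3 controls at an adjusted p below 0.05, where 18.6% of all genes were.

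APOBEC3B and APOBEC3F, the other two that were tested, did not pass between the control lines. APOBEC3B differed by 0.25 (SE 0.12, limma adjusted p = 0.128), but passed, at 0.48 and an adjusted p of 0.018, after median-of-ratios scaling (over all 16 alternatives 0.018 to 0.39). APOBEC3F differed by -0.14 (SE 0.18, limma adjusted p = 0.584), a sign that turned to 0.07 after median-of-ratios scaling and to 0.04 without replicate 1 of the DU145 controls. The median over all genes in this comparison was -0.18, and that scaling sets it to 0. APOBEC3A (log2 change 1.23, SE 0.48) and APOBEC3H (0.41, SE 0.35) entered the fit only through the PC3 controls, the group where they are higher, so these values carry no test.

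The APOBEC3 genes stand in a row on chromosome 22 between CBX6 and CBX7, which encode chromobox proteins of Polycomb complexes. Both flanking genes were lower in PC3 with TRIB1. CBX7 measured 7.02 and 7.34 TPM there, against 15.6 and 17.3 TPM in PC3 controls, a log2 change of -1.09 (SE 0.09). CBX6 measured 23.2 and 22.9 TPM in PC3 with TRIB1, against 29.5 and 35.0 TPM in PC3 controls, a log2 change of -0.46 (SE 0.11). A further neighbour, SUN2, which links the nuclear lamina to the cytoskeleton, stood at 34.4 and 35.0 TPM in PC3 with TRIB1, against 62.3 and 82.5 TPM in PC3 controls. Of 13 neighbours on both sides, 10 had a fitted change below 0 in PC3, where 50.8% of all genes did. Their median was -0.46, beside -0.01 over all genes, and their range -1.09 to 0.50. Past an adjusted p of 0.05, 5 were lower (CBX6, CBX7, NPTXR, SUN2 and GTPBP1) and 1 was higher (TOMM22), beside 9.33% lower and 7.67% higher over all genes. Without either replicate of PC3 with TRIB1 these counts became 1 lower and 0 higher, and without replicate 2 of the PC3 controls 3 lower and 0 higher. None of the 13 rose or fell in DU145, where only 2.72% of all genes did. Their median there was -0.02, beside -0.04 over all genes. APOBEC3C, APOBEC3F, APOBEC3G and the barely detected APOBEC3A each had a lower fitted value in PC3 than any of these neighbours.

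**Figure D3:**
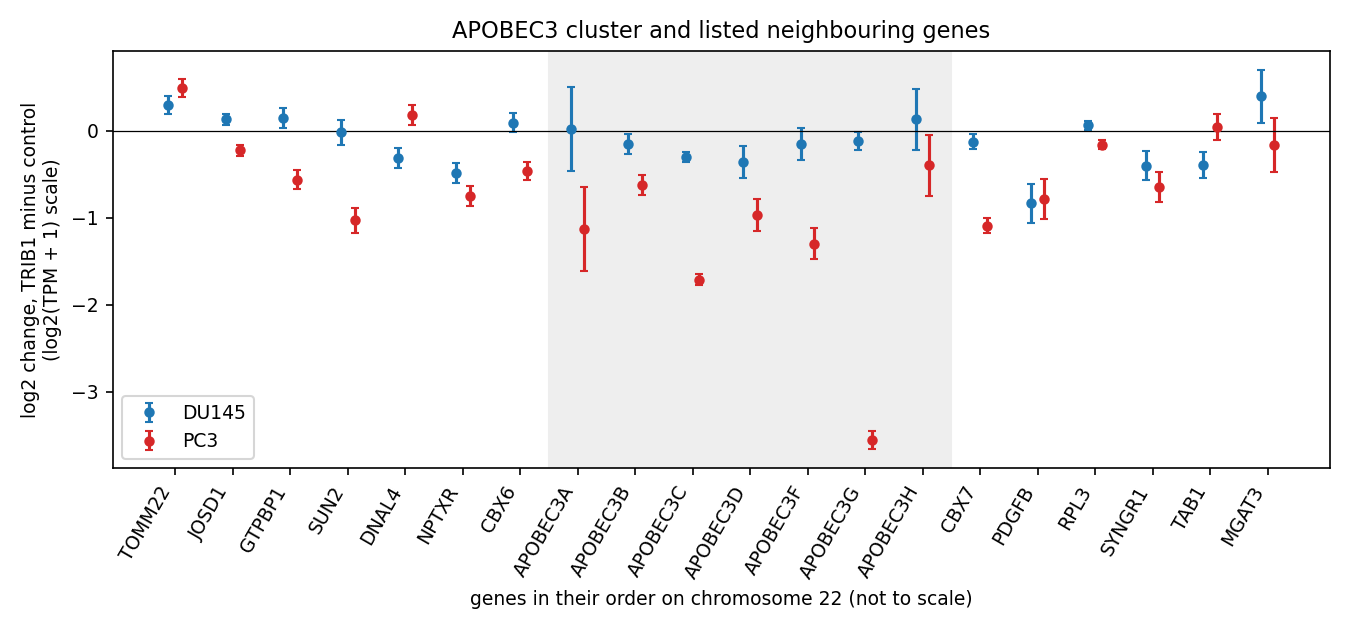
Log2 change with TRIB1 in each line for the 7 APOBEC3 genes and 13 neighbours, in their order along chromosome 22 (spacing not to scale), with SE bars. In PC3, APOBEC3G at -3.55, APOBEC3C at -1.71 and APOBEC3F at -1.30 lie below every neighbour, and in DU145 the members lie between -0.36 and 0.13.

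APOBEC3 genes belong to a wider set of antiviral restriction factors, many of them induced by interferon, and 26 others of that set were measured. With TRIB1 in DU145, 7 of the 26 fell and none rose, where 2.01% of all genes fell and 0.712% rose. OAS1, an RNA sensor that activates RNase L, fell to 3.20 and 2.07 TPM with TRIB1, against 16.3 and 14.9 TPM in DU145 controls, a log2 change of -2.21 (SE 0.16, limma adjusted p = 0.00528). BST2, which tethers budding virions to the cell, stood at 0.526 and 1.17 TPM with TRIB1, against 7.11 and 5.33 TPM in controls (log2 change -1.98, SE 0.23, limma adjusted p = 0.0177). OAS3, a second sensor of that family, stood at 14.3 and 11.7 TPM with TRIB1, against 44.8 and 50.4 TPM in controls (log2 change -1.80, SE 0.20, limma adjusted p = 0.0169). IFITM3, ISG15, SLFN5 and MX1 were the others. The median of the 26 was -0.55 in DU145, beside -0.15 for the APOBEC3 genes.

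The count of 7 was 1 when only the 4 DU145 libraries were fitted, and 4 without replicate 1 of the DU145 controls, without either replicate of PC3 with TRIB1, or with a replicate block. Over the alternatives BST2, OAS3 and SLFN5 lost the call in several, OAS1, MX1 and ISG15 only in the fit of the DU145 libraries alone, and IFITM3 in none.

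In PC3 the same 26 genes had a median change of -0.04, and all genes one of -0.01. Lower past an adjusted p of 0.05 were 5 of them, BST2, ISG20, TREX1, IFITM2 and SERINC3, where 9.33% of all genes were, and 1, RSAD2, was higher, where 7.67% were. No restriction factor was higher in 11 of 16 alternatives, and the count of 5 lower became 2 without replicate 2 of PC3 with TRIB1 and in the fit of the PC3 libraries alone, and 3 without either control library of DU145 or of PC3. ISG20, an exonuclease, stood at 38.9 and 44.8 TPM in PC3 with TRIB1, against 80.3 and 92.0 TPM in PC3 controls. RSAD2, the antiviral enzyme viperin, stood at 6.86 and 4.71 TPM in PC3 with TRIB1, against 1.62 and 2.69 TPM in PC3 controls. OAS1 stood at 27.7 and 26.6 TPM in PC3 with TRIB1, against 30.6 and 27.3 TPM in PC3 controls. MX1, ISG15 and IFITM3, which fell in DU145, had fitted changes of 0.22, 0.01 and 0.12 in PC3. For OAS1, MX1, ISG15 and IFITM3 the difference between the lines itself passed an adjusted p of 0.05 in limma, at -2.12, -1.31, -1.17 and -1.46. TREX1 differed the other way, by 1.18, being lower in PC3 with TRIB1 and at 0.17 in DU145.

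**Figure D4:**
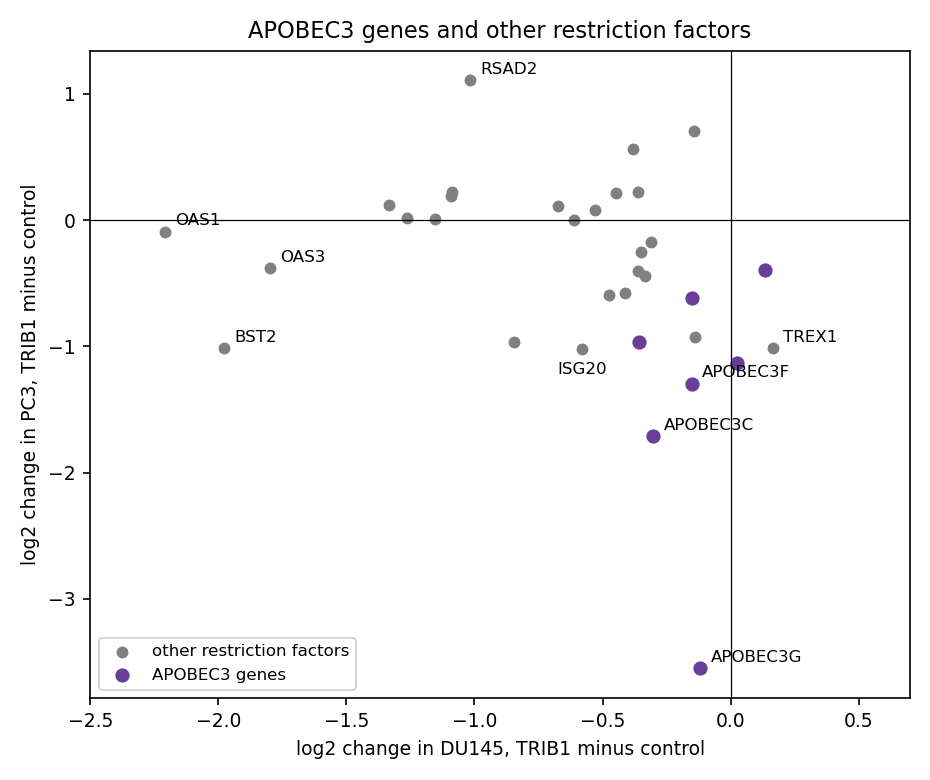
Log2 change with TRIB1 in DU145 (horizontal) and in PC3 (vertical) for the 7 APOBEC3 genes and 26 other restriction factors, 1 point per gene. APOBEC3G, APOBEC3C and APOBEC3F lie low on the PC3 axis and near 0 in DU145, while OAS1 lies at -2.21 in DU145 and -0.09 in PC3.

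Of 19 measured genes that carry the interferon signal to such targets, 5 fell in DU145 with TRIB1 and none rose, where 2.01% of all genes fell and 0.712% rose. Among them were the receptor chains IFNAR1 and IL10RB, the kinase JAK1 and the transcription factor STAT2, with log2 changes from -0.53 to -0.63. STAT2 measured 46.9 and 52.4 TPM with TRIB1, against 77.6 and 73.2 TPM in DU145 controls (limma adjusted p = 0.0275). The count became 0 when only the DU145 libraries were fitted, 1 or 2 when any single library of DU145 or of PC3 with TRIB1 was left out, and 9 of 18 at a minimum of 5 TPM. In PC3, 4 were higher past the threshold (IFNGR1, JAK1, STAT2 and USP18) and 3 lower (IFNGR2, IL10RB and TYK2), with a median of -0.01, where 7.67% of all genes were higher and 9.33% lower. The PC3 counts became 1 higher and 0 lower without replicate 1 of PC3 with TRIB1, 2 and 0 without replicate 2, and 1 lower without any single DU145 library.

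Factors linked to APOBEC3B were listed in 2 groups. Of 11 genes of the DREAM and B-MYB complexes, which tie APOBEC3B to the cell cycle, none passed in DU145, beside 2.72% of all genes. In PC3, 9.33% of all genes were lower and 7.67% higher. Of the 11, MYBL2 (log2 change -0.52, SE 0.09) and E2F4 (-0.41, SE 0.09) were lower there and LIN52 (0.91, SE 0.14) was higher. Without either replicate of PC3 with TRIB1, none was lower. MYBL2 stood at 54.9 and 53.9 TPM in PC3 with TRIB1, against 76.4 and 80.3 TPM in PC3 controls. Of 8 NF-kB genes, NFKBIA and NFKB1 (log2 change -0.64) fell in DU145, where 2.01% of all genes fell. PRKCA, a kinase upstream of APOBEC3B induction, rose in DU145 (log2 change 0.52), where 0.712% of all genes rose. NFKBIA, the inhibitor that holds NF-kB in the cytoplasm, measured 114 and 98.3 TPM with TRIB1, against 242 and 216 TPM in DU145 controls (log2 change -1.11, SE 0.11, limma adjusted p = 0.0104). All 3 DU145 calls were lost in the fit of the DU145 libraries alone, that of PRKCA also with no trend, and those of PRKCA and NFKB1 under the block. Without single libraries the DU145 log2 change ranged from -1.21 to -1.002 for NFKBIA, -0.711 to -0.571 for NFKB1 and 0.517 to 0.522 for PRKCA. In PC3, RELB, NFKB1 and TRAF3 were higher and MAP3K14 and PRKCA lower, beside 7.67% higher and 9.33% lower over all genes. None of the 8 was higher in PC3 without either replicate of PC3 with TRIB1 or of the DU145 controls, in the fit of the PC3 libraries alone or with no trend, while 2 were lower in each of these.

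Partners that act on the APOBEC3 proteins or on their products were also listed. Of 16 genes that remove uracil from DNA or pass the resulting abasic site, none rose or fell in DU145. Over all genes in DU145, 2.72% rose or fell. The PC3 counts of these partners stand beside 7.67% of all genes higher and 9.33% lower past the threshold. In PC3, the uracil glycosylases UNG and SMUG1 and the gap-filling polymerase POLB were higher past the threshold and PARP1 and MAD2L2 were lower. These counts became 1 higher and 0 lower without either replicate of PC3 with TRIB1, without replicate 2 of the PC3 controls or in the fit of the PC3 libraries alone, and 0 were lower under 5 of the other 12 alternatives. POLB measured 41.5 and 37.1 TPM in PC3 with TRIB1, against 19.2 and 20.4 TPM in PC3 controls, a log2 change of 0.95 (SE 0.12). A list of 7 genes held those of the ubiquitin ligase that Vif borrows, together with CBFB and RUNX1. Of these, CUL5, ELOC and ARIH2 were higher in PC3. The count of 3 became 2 in the fit of the PC3 libraries alone and with no trend, and 4 at a minimum of 5 TPM and after either scaling. Without single libraries their PC3 log2 changes ranged from 0.466 to 0.553 for CUL5, 0.296 to 0.425 for ELOC and 0.512 to 0.582 for ARIH2. RUNX1, the usual partner of the Vif cofactor CBFB, fell in DU145 to 38.0 and 37.9 TPM with TRIB1, against 81.4 and 77.3 TPM in controls (log2 change -1.04, SE 0.12, limma adjusted p = 0.0169), a call that was lost without any single library of DU145 or of PC3 with TRIB1. Among the other deaminase genes, APOBEC1, APOBEC2, APOBEC4 and ADARB2 did not reach a group mean of 1 TPM. The RNA editors ADAR and ADARB1 and the APOBEC1 partner A1CF were measured and did not pass in either line. ADAR changed by -0.52 in DU145 (SE 0.10, limma adjusted p = 0.0657) and passed there at a minimum of 5 TPM. A1CF averaged 0.0504 TPM in DU145 with TRIB1 and 0.0615 TPM in DU145 controls. It entered the fit only through PC3, so its DU145 test says little.

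The members differed in which other genes followed them over the 8 libraries, which fall in 4 groups, so these correlations describe shared group levels only. Among 12996 genes with a mean of 5 TPM in some group, those closest to APOBEC3G on the log2(TPM + 1) scale included TSPEAR-AS1 (Pearson r = 0.989), PLXNA1 (0.986), CD99L2 (0.983) and LANCL1 (0.983). PLXNA1 showed the shape of APOBEC3G, at 26.4 and 27.5 TPM in PC3 with TRIB1, against 77.5 and 97.2 TPM in PC3 controls, and at 25.1 and 25.8 TPM in DU145 with TRIB1, against 26.3 and 24.9 TPM in DU145 controls. The genes closest to APOBEC3C were DCAF5, KCTD2 and HOTTIP, each at 0.998. STMP1 (0.985), EME1 (0.975) and COPS7B (0.972) were closest to APOBEC3B, and TWSG1 (0.981), KCNAB2 (0.979) and SLC45A1 (0.978) to APOBEC3F. Members themselves were excluded when the closest genes were picked. Between members, r was 0.961 for APOBEC3C with APOBEC3D, whose listed intervals overlap. It was 0.365 for APOBEC3F with APOBEC3G, whose intervals overlap too, and -0.27 for APOBEC3C with APOBEC3F.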

How the data were processed

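The authors deposited 1 table of TPM values for 57905 genes in 8 libraries, and the labels give total RNA in TRIzol and an NEB Ultra kit. Per the submitters' processing notes, hg38, HTSeq, TopHat2 2.0.14, edgeR and DESeq were used, with no roles given. No source used here says which tool made the TPM values, the strand setting or the build of the listed intervals, and no coordinate was converted. TPM keeps no totals, so depth is unknown and no counting interval was made. Symbols of 51996 genes were read from their identifiers.

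Computed from the deposited TPM: log2(TPM + 1), which understates changes of low genes, tested with limma 3.58.1 in R 4.3.3 (trend on), for the 25982 genes whose mean reached 1 TPM in some group. All 8 libraries entered 1 fit (4 residual and 1.89 prior degrees of freedom), with Benjamini-Hochberg adjustment over all genes tested. "Rose" and "fell" mean an adjusted p below 0.05, and "called" adds a log2 change over 1 in size. A call said to be lost under an alternative refers to the adjusted p alone, whatever the size of the change. The procedure was tested on simulated data. The labels do not say that replicates were separate cultures, so the spread behind the p-values is that between libraries and may be technical.

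Members and gene lists were chosen with earlier results of these data known. Named genes are the members, TRIB1, the 3 genes closest to each member above 5 TPM (5 for APOBEC3G), the chromosome 22 neighbours beside the cluster, and from each list up to 3 called per direction and those a count of 5 or fewer refers to. IFITM3, ISG15, SLFN5 and MX1, PLXNA1's values and the PC3 values of OAS1 were added after their values were seen. A few genes picked by this rule are not reported here. Coding sequences came from GENCODE 29 (GRCh38). Alternatives were another pseudocount (0.1), no minimum or 5 TPM, median-of-ratios and upper-quartile scaling, fits of the compared libraries alone, no trend, a replicate block and leaving out each library.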

Additional observations from a re-analysis of the deposited data

Results flagged for a closer look

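The results below differed between the lines under the same comparison. They are log2 changes in DU145 minus those in PC3. For the APOBEC3 genes they are descriptions, since the PC3 values chose the family. APOBEC3G differed by 3.43, APOBEC3C by 1.41 and APOBEC3F by 1.14, each less negative in DU145. The low DU145 control level of APOBEC3G bounded its fall there, and APOBEC3F lost its adjusted p below 0.05 under several alternatives. Other genes named above were picked out by an adjusted p below 0.05 for the difference itself in limma and a difference over 1.

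Among restriction factors, RSAD2 differed by -2.13, OAS1 by -2.12, IFITM3 by -1.46, OAS3 by -1.42, MX1 by -1.31, SLFN5 by -1.28, ISG15 by -1.17 and TREX1 by 1.18. RSAD2 stood at 0.0204 and 0.0178 TPM in DU145 with TRIB1, against 1.03 and 1.1 TPM in DU145 controls, but did not pass in DU145 (limma adjusted p = 0.109), and no restriction factor was higher in PC3 in 11 of 16 alternatives. Of the interferon signalling genes, IFNGR1 differed by -1.22, STAT2 by -1.12, USP18 by -1.04 and JAK1 by -1.01. STAT2 measured 46.9 and 52.4 TPM in DU145 with TRIB1, against 77.6 and 73.2 TPM in DU145 controls, and 70.9 and 64.7 TPM in PC3 with TRIB1, against 46.3 and 47.1 TPM in PC3 controls. Its DU145 call was lost in 10 of 16 alternatives. Among NF-kB genes, PRKCA differed by 1.15, RELB by -1.06 and NFKB1 by -1.04. Further differences were -1.15 for LIN52, -1.48 for RUNX1 and 1.01 for SUN2. Groups of 2 were too small to look for single libraries that stand apart within a group.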

How the results depend on the processing

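TPM values without totals, groups of 2 and unknown read assignment between close members limit these results, and members below 1 TPM most. APOBEC3G in PC3 ranged from -3.83 to -3.48 over 16 alternatives and APOBEC3C from -1.75 to -1.62. In DU145 no member passed under any of them, and the adjusted p of APOBEC3C ranged from 0.0553 to 0.2. Signs that turned there were those of APOBEC3A (-0.149 to 0.196 without single libraries, -0.132 without replicate 1 of the controls), APOBEC3F (-0.331 to 0.029) and APOBEC3H (-0.079 to 0.347). Between the controls, APOBEC3F was at 0.07 after median-of-ratios scaling and -0.317 to 0.043 without single libraries. The cause was not tested.

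Genes past an adjusted p of 0.05 and a log2 change of 1 numbered 290 in DU145 (81 higher, 209 lower). They were 46 with the compared libraries alone, 150 with a replicate block and 195 to 584 without single libraries. The split turned to 405 higher and 179 lower without replicate 1 of DU145 with TRIB1 and to 276 and 178 without replicate 2, and was 65 and 371 without replicate 1 of the DU145 controls and 68 and 442 without replicate 2. In PC3 they numbered 1350 (656 higher, 694 lower), 1203 with the block and 1158 to 1598 without single libraries. The difference between lines had 1330, 927 with the block and 1006 to 1650 without single libraries. The controls had 6610, 6525 with the block and 6248 to 6521 without single libraries. Upper-quartile scaling split PC3 into 790 higher and 579 lower, and median-of-ratios scaling split the controls into 3188 higher and 3091 lower (2542 and 4068 before). Family totals after median-of-ratios scaling averaged 140.7 TPM in PC3 with TRIB1, 452.9 TPM in PC3 controls, 52.1 TPM in DU145 with TRIB1 and 57.3 TPM in DU145 controls. After upper-quartile scaling they were 138.1 TPM in PC3 with TRIB1 and 61.6 TPM in DU145 controls. Same-numbered libraries showed no shared deviation between groups, with correlations of -0.042 to 0.014. This cannot settle whether they were handled as pairs, which the labels do not say.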
